A study of Mus musculus with 4 samples.

Results

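The genes described here encode the 4 classical families of guidance cues, which are ephrins, semaphorins, slits and netrins, together with their receptors, the Eph receptors, plexins, neuropilins, Robo receptors and Unc5 receptors. Members were taken by gene name, as every non-control probe whose name in the scanner files belonged to 1 of these 9 families. The choice was made with earlier results of these data known, so the shares of members below are descriptive. This gave 118 of the 41174 probes on the array, for 64 genes. Of these, 59 genes had a probe that cleared background well in both experiments of 1 node or of both nodes, and were tested among 21392 genes. The other 5, Efna3, Epha8, Epha10, Sema4f and Sema4g, did not pass that filter.

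Total RNA came from CD45-negative cells, the cells left after leukocytes are removed, of the gut-draining mesenteric lymph node (mLN) and of a peripheral lymph node (pLN). The mice were wild-type C57BL/6NCrl without further treatment, and the labels give neither their age nor the number pooled in a sample. Both nodes were digested with collagenase and depleted of CD45-positive cells with magnetic beads, and the labels state that 97.4% ± 2.0 of mLN cells and 97.5% ± 2.2 of pLN cells were CD45-negative. Each node was taken in 2 experiments and hybridised to 1-colour Agilent arrays, 4 in all, so each value below is 1 array and each group has n = 2. Whether the experiments came from separate animals is not stated, and the spread behind each p-value is that between these samples, which may be technical.

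The 75th percentile of the signal lay between 1686 and 1741 on the 4 arrays, and the share of probes well above background ran from 74.0% to 81.1%. Levels below are log2 signals relative to the 75th percentile of the same array, and differences are mLN minus pLN on that log2 scale, with the standard error of the limma fit. A level of 1 probe is not set against that of another, because probes differ in how strongly they bind. The cells were not purely of the labelled kind: Ptprc, which encodes CD45, was well above background on all 4 arrays, and its difference was 0.06 ± 0.21. Fibroblastic reticular markers, 11 of which were tested, had a median difference of 0.03 and none was called, whereas markers of tissues next to the nodes differed and are given beside the results they move with. In such bulk samples fewer cells of a type and less RNA per cell cannot be told apart.

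Guidance cues were first described for growing axons and are also used by endothelial, mesenchymal and epithelial cells. Ephrins and Eph receptors are both bound to the membrane, so they signal at cell contacts and in both directions, and in vessels ephrin-B2 marks arteries and its receptor EphB4 marks veins. Semaphorins signal through plexins, with neuropilins as co-receptors for most secreted class 3 members. Slits are secreted ligands of Robo receptors, and netrins are laminin-related ligands that act through Dcc, neogenin and Unc5 receptors.

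Both guidance genes that passed the threshold encode ligands and were higher in mLN. Efna5, a GPI-anchored ephrin of class A, was 7.03-fold higher in mLN and Slit2, a secreted Robo ligand, 3.88-fold higher. Each fold is that of the brightest probe of the gene. Another probe of each gene, well above background on all 4 arrays, gave a log2 difference of 0.13. No guidance gene passed in the other direction. That is 2 of 59 tested members, or 3.39%, beside 1.05% of all 21392 genes that passed at an adjusted p of 0.05 (limma, Benjamini-Hochberg over all genes). In the direction of higher in mLN the background was 0.776%, and in the other direction 0.276%.

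Looser descriptions took more members. In 7 of 59 members (11.9%) the nodes differed 2-fold or more in each experiment with 1 sign, beside 4.45% of all genes. Of these, 6 were higher in mLN (background 2.75%) and 1 was lower (background 1.71%). Sema3e, 1 of the 6, passed the filter through mLN alone, because its pLN signal in experiment 2 was not well above background. The arrays of the nodes did not overlap in 36 members (61.0%), 19 higher and 17 lower in mLN, beside 45.6% of all genes. An unadjusted p under 0.05 was reached by 24 members (40.7%), 14 positive and 10 negative, beside 14.7% of all genes. The difference between the node means exceeded the gap between the arrays of either node in 30 members (50.8%), beside 33.1% of all genes. Sema3e is included in each of these counts. Over the 59 members the median difference was −0.05, beside −0.03 over all genes tested, so the members did not lie to 1 side.

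**Figure D1:**
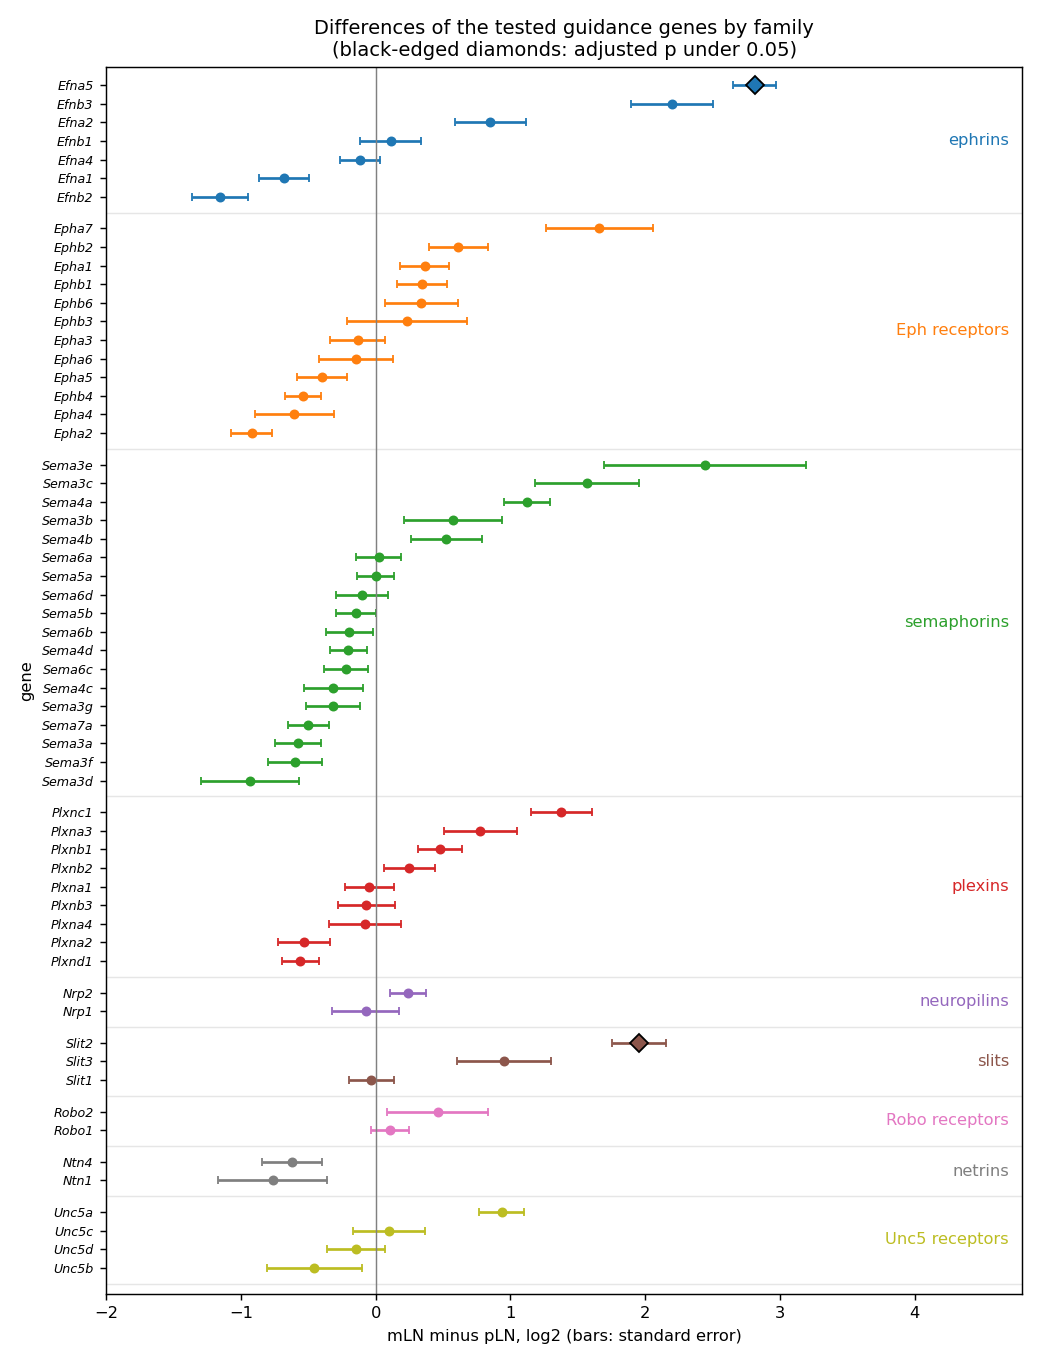
The plot of differences by family shows mLN minus pLN (log2, x axis) for each of the 59 tested guidance genes (y axis), with bars of 1 standard error (n = 2 arrays per node). The black-edged diamonds are the genes past the threshold, Efna5 at 2.81 and Slit2 at 1.96, and within most families genes lie on both sides of 0.

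Among ligands 12 of the 30 tested genes had a positive and 18 a negative difference, with a median of −0.11. Among receptors 15 of 29 were positive and 14 negative, with a median of 0.10, and none was called. An unadjusted p under 0.05 in limma was reached by 10 receptors, beside 14.7% of all genes. The ligands spread further, from −1.16 for Efnb2 to 2.81 for Efna5, against −0.92 for Epha2 to 1.66 for Epha7 among receptors.

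The ephrins held the largest difference of the whole set, and their members went different ways. Efna5 was −0.30 and −0.27 on the pLN arrays of experiments 1 and 2, and 2.66 and 2.40 on the mLN arrays. Both mLN arrays lay far above both pLN arrays, and the arrays of a node lay within 0.26 of each other. The difference was 2.81 ± 0.16 (adjusted p = 0.014, limma). It was 2.96 in experiment 1 and 2.67 in experiment 2. The call ended when either pLN array was left out, as did the calls of all other genes. The difference was then 2.80 without pLN replicate 1 and 2.83 without pLN replicate 2. The Efna5 call also ended without the filter on dim probes (adjusted p = 0.0537, limma). With normexp background correction the difference was 2.47 (adjusted p = 0.689), and no gene on the array was called. The mean of both probes gave 1.47 in place of 2.81 and still passed (0.0328), and over the alternative settings the adjusted p ranged from 0.00277 to 0.689.

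The Efna5 difference came from 1 of 2 probes, which is why both are shown. The downstream probe, nearer the 3′ end of the gene, lay at chr17:62290290-62290349 of mm8, the build of the files, on the minus strand, and gave 2.81. The upstream probe at chr17:62336320-62336379, 46030 bases away, gave 0.13 (adjusted p = 0.797 in a limma fit with each probe in its own row). It was well above background on all 4 arrays, at −2.54 and −2.47 in pLN and −2.47 and −2.28 in mLN. The first 30 of the 60 bases of each probe, 5′ to 3′ and with no part marked, are as follows.
Efna5 downstream probe: tgtgattctagcatttgtctctaaccaatg
Efna5 upstream probe: tcggaaaaattccagctcttcactcccttt

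Efnb3, a transmembrane ephrin of class B, was −4.27 and −3.83 on the pLN arrays and −2.19 and −1.51 on the mLN arrays. The nodes did not overlap, and the difference was 2.20 ± 0.30, or 4.59-fold, with 2.08 and 2.32 in the experiments. It missed the threshold (adjusted p = 0.0785, limma) and passed it with the experiment as a block (0.0291) and with an intensity trend in the prior variance (0.0375). Efnb2 was 3.78 and 3.41 in pLN and 2.58 and 2.30 in mLN. It was the only guidance gene at least 2-fold lower in mLN in both experiments (−1.16 ± 0.21, adjusted p = 0.117), and its second probe gave −1.35. It passed only with the intensity trend (adjusted p = 0.0493, range over the settings 0.0493 to 0.689).

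The remaining ephrins had smaller differences. Efna1, which binds EphA2, had −0.68 ± 0.18 (adjusted p = 0.213), with levels of 2.66 and 2.56 in pLN and 2.11 and 1.74 in mLN. Efna2 had 0.85 ± 0.26 (adjusted p = 0.268). For Efna4 and Efnb1 the arrays of the nodes overlapped, and the 95% intervals of their differences ran from −0.51 to 0.28 and from −0.50 to 0.72. Efna3 exceeded background clearly on a single array, of mLN.

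None of the 12 tested Eph receptors was called, and their median was 0.05. An unadjusted p under 0.05 (limma) was reached by 4 of them, beside 14.7% of all genes. Of the 7 tested class A receptors 5 were negative and 2 positive. Of the 5 class B receptors 1 was negative and 4 positive. Epha2, a receptor of epithelia and vessels, was 0.62 and 0.67 in pLN and −0.17 and −0.38 in mLN, a difference of −0.92 ± 0.15 (adjusted p = 0.105) with no overlap between nodes. Epha7 was −4.11 and −4.39 in pLN and −3.13 and −2.06 in mLN. Its difference of 1.66 ± 0.40 (adjusted p = 0.178) was 0.98 in experiment 1 and 2.33 in experiment 2. Its second probe was not well above background in pLN and gives no exact difference.

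Ephb4, the venous partner of ephrin-B2, was 1.64 and 1.70 in pLN and 1.15 and 1.11 in mLN. The nodes did not overlap, and the difference of −0.54 ± 0.13 (adjusted p = 0.19) had the same sign as that of Efnb2. Its second probe gave −0.78. Ephb2 had 0.61 ± 0.22 (adjusted p = 0.325). The intervals of Epha1, Epha3, Epha5, Epha6, Ephb1 and Ephb4 stayed within 2-fold, whereas those of Ephb3 (−0.97 to 1.43) and Epha4 (−1.39 to 0.18) did not. Over the ephrin and Eph system of 19 tested genes the median was 0.11, with 0.21 and 0.10 in the experiments, and it turned to −0.14 without pLN replicate 1, to −0.03 without mLN replicate 2 and to −0.09 without the filter.

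Several marker lists lay mostly lower in mLN, the direction of Efnb2, Ephb4, Efna1 and Epha2. Blood endothelial markers had a median of −0.49, with 9 of 10 negative and none called, and their summed level was 8.15 to 8.22 on the pLN arrays and 7.49 to 7.83 on the mLN arrays. Surface and glandular epithelial markers, 9 of 10 of them negative and 3 called lower in mLN, summed to 2.64 and 3.83 in pLN and 0.25 and 0.34 in mLN. Lymphatic endothelial markers had a median of −0.76, with 5 of 7 negative and none called. They summed to 7.13 and 6.93 in pLN and 6.85 and 6.19 in mLN. Schwann cell and adipocyte markers had medians of −0.19 and −0.20, with none called. The part of any of these cell types in the values of Efnb2, Ephb4, Efna1 and Epha2 was not tested.

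**Figure D2:**
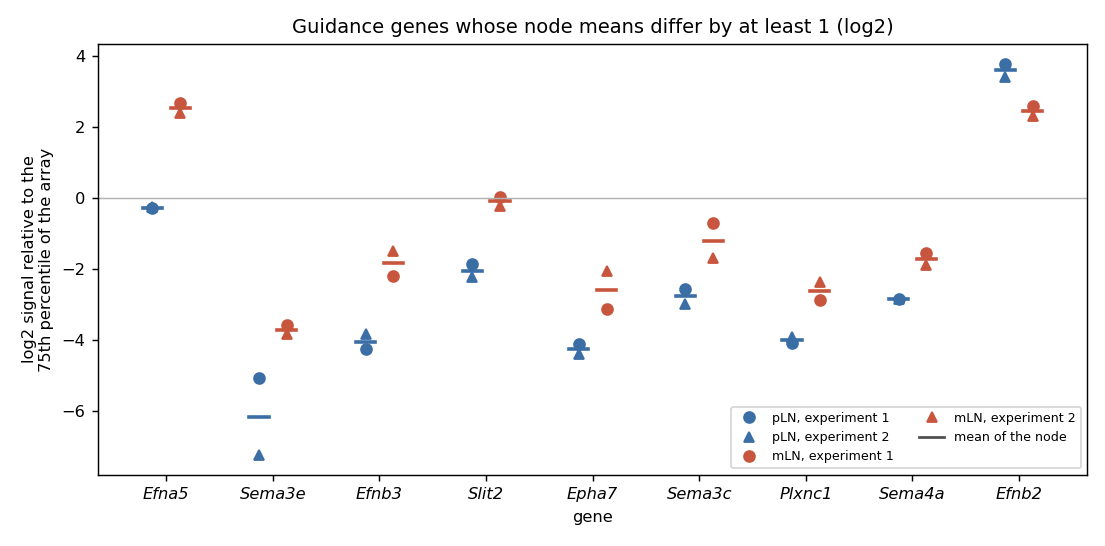
The plot of array values shows the level (log2 signal relative to the 75th percentile, y axis) of the 9 guidance genes whose node means differed by at least 1 (x axis), with a circle for experiment 1, a triangle for experiment 2 and a line at the mean of each node. The mLN and pLN arrays do not overlap in any of the 9 genes, which follows largely from picking them by that difference. Of all genes tested 45.6% do not overlap. The widest gap within a node is that of Sema3e in pLN, from −7.25, a signal not well above background, to −5.08.

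None of the 18 tested semaphorins was called, with 6 at an unadjusted p under 0.05 (limma), beside 14.7% of all genes. Their median was −0.17, and the arrays of the nodes did not overlap for 12 of them, 4 higher and 8 lower in mLN (background 20.6% and 25% of all genes). The secreted class 3 spanned most of the range. Sema3e, the ligand of plexin D1 in vessels, was −5.08 and −7.25 in pLN and −3.59 and −3.84 in mLN. Only 1 of its 2 pLN arrays was well above background, so the fold is a limit of at least 4.53, computed with the other array raised to the dimmest signal that still counted as well above background there. The fitted difference was 2.45 ± 0.75 (adjusted p = 0.263), 1.49 in experiment 1. The value of experiment 2 is taken against the undetected pLN array and has no exact size, and the second entering probe was likewise undetected there. The difference was 1.36 without pLN replicate 2 and 3.53 without pLN replicate 1.

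Sema3c was −2.57 and −2.98 in pLN and −0.71 and −1.70 in mLN, a difference of 1.57 ± 0.39 (adjusted p = 0.186) with 1.86 and 1.28 in the experiments. Its second probe gave 0.76. The other way lay Sema3d (−0.93 ± 0.36), Sema3f (−0.60 ± 0.20) and Sema3a (−0.58 ± 0.17). Sema3f and Sema3a are known to repel axons and endothelial cells. Sema3a was 0.70 and 0.38 in pLN and −0.06 and −0.01 in mLN, and its other probes gave −0.86 and −0.52. None of these passed (adjusted p 0.253 to 0.359). Class 3 as a whole had 3 positive and 4 negative genes and a median of −0.32.

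Pancreatic acinar markers changed with the arrays in a way that Sema3e shared. All 10 were positive and 1, Amy2a5, was called. The call rests on pLN levels of −8.16 and −9.02, both too dim to count as detected, so its difference has no exact size. The summed level of the 10 markers was 4.74 on pLN replicate 1, 0.29 on pLN replicate 2, and 10.3 and 8.86 on the mLN arrays. On pLN replicate 1 both the pancreatic sum and Sema3e were above their values on pLN replicate 2. The pancreatic part in the Sema3e difference was not tested.

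In the membrane-bound classes, Sema4a, which acts on T cells and endothelium, was −2.84 and −2.86 in pLN and −1.56 and −1.88 in mLN. The difference of 1.13 ± 0.17 (adjusted p = 0.0932) was 1.28 and 0.97 in the experiments. Sema7a, a GPI-anchored semaphorin that binds plexin C1 and integrins, was 4.21 and 4.38 in pLN and 3.73 and 3.86 in mLN, a difference of −0.50 ± 0.15 (adjusted p = 0.257) without overlap. Its receptor gene Plxnc1 had a difference of the opposite sign, given below. Sema4d, known as CD100, had −0.20 ± 0.14 by its brighter probe and −1.23 by the other. Classes 5 and 6 differed little: their 6 tested genes lay between −0.22 and 0.02, and the intervals of all 6 stayed within 2-fold. The narrowest of these was Sema5a, at −0.36 to 0.36. Sema6d had probes of −0.10 and 0.61.

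All 9 plexin genes were tested and none was called, and their median was −0.05. An unadjusted p under 0.05 (limma) was reached by 5 of them, beside 14.7% of all genes. Plxnc1 was −4.08 and −3.91 in pLN and −2.87 and −2.36 in mLN, a difference of 1.38 ± 0.23 (adjusted p = 0.105), or 2.60-fold, and each experiment alone gave more than 2-fold. Its second probe gave −0.06. Plxnd1, the endothelial plexin, was 0.99 and 1.08 in pLN and 0.52 and 0.43 in mLN. The nodes did not overlap and the difference was −0.56 ± 0.14 (adjusted p = 0.19), beside the lower blood endothelial markers given above. Plxnb2, a plexin of many epithelia and of macrophages, had 0.25 ± 0.19 (adjusted p = 0.643).

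Plxna2 had −0.53 ± 0.19, and its other probes gave −0.37 and −0.41. Plxna1 (−0.05 by the brighter probe and 0.24 by the other) and Plxna3 (0.78 and −0.14) had probes of opposite sign. The neuropilin genes had small differences. Nrp2, a co-receptor for class 3 semaphorins and for VEGF-C on lymphatic vessels, was 3.22 and 3.18 in pLN and 3.45 and 3.43 in mLN, a difference of 0.24 ± 0.13 (adjusted p = 0.52, interval −0.12 to 0.60), and −0.10 after normexp correction. Nrp1 had −0.07 ± 0.25, with probes from −0.07 to 0.37. Over the 29 tested genes of the semaphorin, plexin and neuropilin system the median was −0.07, and 0.0033 after normexp background correction, which moved the median of all genes from −0.03 to 0.38. Lymphatic endothelial markers, beside which Nrp2 can be read, had a median of −0.76 over 7 genes, 5 of them negative and none called.

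The slits were the ligand family with the highest median, 0.95 over 3 genes, and 1 of them was called. Slit2 was −1.87 and −2.23 in pLN and 0.04 and −0.23 in mLN, so both mLN arrays lay about the same distance above both pLN arrays. The difference was 1.96 ± 0.20 (adjusted p = 0.0442, limma), with 1.91 and 2.00 in the experiments. The adjusted p lay close to the threshold, and the call ended with any of the 4 arrays left out, with values from 1.78 to 2.13. Without either pLN array the calls of all other genes ended too. The Slit2 call also ended with the mean of the probes (1.28, adjusted p = 0.0847) and with each probe in its own row (0.0559). It ended without the filter on dim probes (0.122) and with normexp background correction (0.689), where no gene was called. Over the settings the adjusted p ranged from 0.0170 to 0.689.

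Slit2 had 6 probes, 3 of which passed the filter, and they fell into a downstream pair and an upstream probe. The downstream probes at chr5:48593511-48593570 and chr5:48592885-48592944 of mm8, plus strand, gave 1.96 and 1.74. The upstream probe at chr5:48535726-48535785 gave 0.13, at −4.26 and −4.44 in pLN and −4.54 and −3.91 in mLN. The first 30 bases of each are shown because, as for Efna5, the difference was seen by the probes nearer the 3′ end.
Slit2 downstream probe 1: cctccttcaggacacttgcagaaggtttgc
Slit2 downstream probe 2: gacacatcgagcacaagtgtgtgagtgaga
Slit2 upstream probe: ggcctctttgtactattttctgattgctct

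Slit3 was 2.09 and 1.68 in pLN and 3.27 and 2.41 in mLN, a difference of 0.95 ± 0.35 (adjusted p = 0.333) that was 1.18 in experiment 1 and 0.73 in experiment 2. Its second probe gave 0.65. Slit1 had −0.03 ± 0.17, with an interval of −0.48 to 0.42. The receptor genes differed less: Robo1 was 0.22 on both pLN arrays and 0.25 and 0.41 in mLN (0.11 ± 0.14, interval −0.28 to 0.49), and Robo2 had 0.46 ± 0.37 with overlapping nodes. Robo2 rested on the pLN arrays, with 0.00084 without pLN replicate 1 and 0.92 without pLN replicate 2. A second Robo1 probe was not well above background on 1 pLN array and gives no exact difference. Over the 5 genes of the slit and Robo system the median was 0.46, with 0.69 and 0.23 in the experiments. It was 0.11 without pLN replicate 1, 0.23 without mLN replicate 2 and 0.75 without pLN replicate 2.

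Mesothelial markers were 1 of several lists that moved in the same direction as Efna5 and Slit2. The 13 tested mesothelial markers had a median of 4.61, and the 9 that were called all lay higher in mLN. The level summed over the 13 was 5.10 and 5.17 on the pLN arrays and 6.47 and 6.08 on the mLN arrays. Gpm6a, at 4.44 and 4.40 in pLN and 4.55 and 4.27 in mLN, held much of that sum and differed by −0.01. The sum thus does not show the size of differences such as those of Msln (8.88) and Upk3b (9.62). Of the 13 differences 11 were positive and 2, those of Krt18 and Gpm6a, were negative. Of the 13, 9 cleared background on both pLN arrays, among them Msln, Upk3b, Muc16 and Rspo1. Upk1b and Lrrn4 did so on 1 pLN array and the transcription factor genes Wt1 and Bnc1 on none. Pancreatic acinar markers lay higher in mLN too, with a median of 8.18 and 10 of 10 positive. Pericyte and smooth muscle markers had a median of 0.35, with 7 of 9 positive and none called. Leukocyte markers had a median of 0.35, with 7 of 10 positive and none called. The part of any of these cell types in the Efna5 and Slit2 differences was not tested.

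The upstream promoter sequences of both called genes are shown as RefSeq gives them for GRCm38.p6, 250 bases before the start of the gene, read along the strand of the gene. Capitals mark the GC box GGGCGG or its reverse complement CCGCCC, the letters that Sp-family factors bind.
Efna5 (chr17:62881318-62881567, minus strand): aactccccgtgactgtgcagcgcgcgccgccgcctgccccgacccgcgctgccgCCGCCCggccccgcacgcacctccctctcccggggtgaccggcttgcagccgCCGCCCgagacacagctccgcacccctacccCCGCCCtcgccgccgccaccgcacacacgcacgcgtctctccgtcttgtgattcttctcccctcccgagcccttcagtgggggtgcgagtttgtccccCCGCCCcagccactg
Slit2 (chr5:47982905-47983154, plus strand): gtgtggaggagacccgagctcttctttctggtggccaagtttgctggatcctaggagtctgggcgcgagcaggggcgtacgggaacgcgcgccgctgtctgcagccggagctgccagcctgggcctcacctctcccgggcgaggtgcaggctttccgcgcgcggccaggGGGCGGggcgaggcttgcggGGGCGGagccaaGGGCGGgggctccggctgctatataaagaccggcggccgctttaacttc
The Efna5 window held 4 such matches, all as CCGCCC, and the Slit2 window 3, all as GGGCGG. Both were rich in CpG, with 32 and 25 CpG. The Slit2 window also held the letters TATAAA and the Efna5 window did not. A promoter was matched by symbol for 55 of the 64 genes, 71 windows in all. A GC box was present in 71.8% of these windows, in 50.5% of the windows of all tested genes and in 32.7% of all windows. The 3 sets also differed in base composition, which bears on any motif made of G and C. Their median share of G and C was 64.4%, 58.0% and 52.4%, and their median number of CpG 16, 13 and 6. TATAAA on either strand was present in 2.82%, 8.92% and 12.4%, and CACGTG, the E-box, in 5.63%, 7.50% and 6.02%. A match describes letters and shows no binding.

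Neither netrin was called, and 1 had an unadjusted p under 0.05 (limma), beside 14.7% of all genes. Ntn1 was −1.50 and −2.29 in pLN and −2.26 and −3.06 in mLN. The nodes overlapped, because the experiments differed by about as much as the nodes, and the difference was −0.77 ± 0.40 (adjusted p = 0.5) with −0.76 and −0.77 within the experiments. Ntn4, a basement membrane netrin, was −2.70 and −3.24 in pLN and −3.59 in both mLN samples, a difference of −0.62 ± 0.22 (adjusted p = 0.325).

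None of the 4 Unc5 genes was called and 1 had an unadjusted p under 0.05 (limma), beside 14.7% of all genes. Unc5a was −1.76 and −1.89 in pLN and −0.75 and −1.02 in mLN, without overlap and with a difference of 0.94 ± 0.17 (adjusted p = 0.117). It was 1.01 in experiment 1 and 0.87 in experiment 2, just under 2-fold in the latter. Unc5b, the endothelial netrin receptor, had −0.45 ± 0.35, of opposite sign in the experiments (0.14 and −1.05). Unc5c had 0.10 ± 0.27 and Unc5d −0.15 ± 0.21, the latter well above background on 1 of 2 mLN arrays. Over the 6 genes of the netrin and Unc5 system the median was −0.30, and 0.46 after normexp correction, where all genes had 0.38. Ntn1 turned to 0.31 and Unc5c to −0.07 in the same setting.

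**Figure D3:**
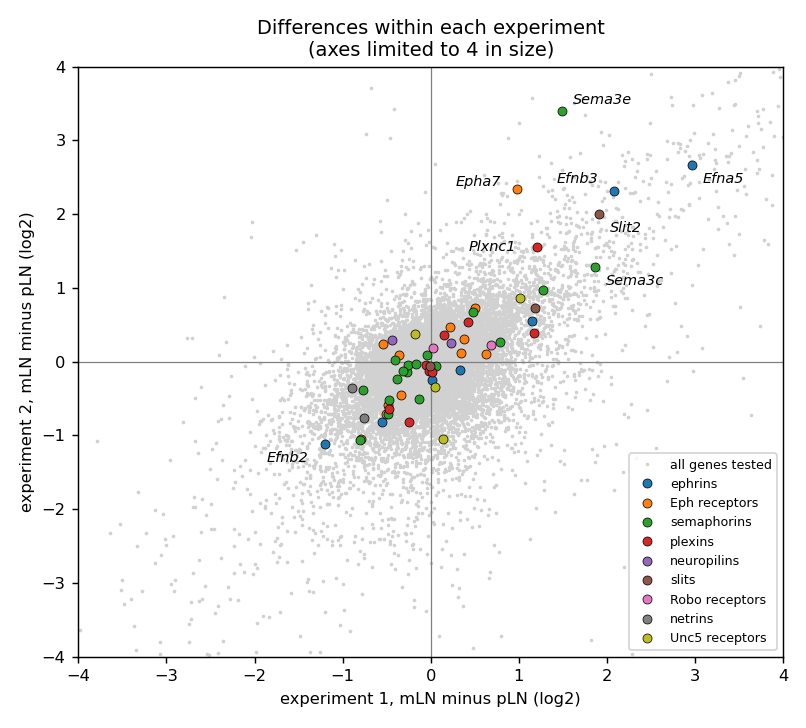
The plot of the experiments sets the mLN minus pLN difference (log2) of experiment 1 (x axis) against that of experiment 2 (y axis), in grey for all tested genes and in colour for the guidance families, with axes limited to 4 in size. Efna5, Efnb3 and Slit2 have near-equal differences in both experiments, whereas Epha7 (0.98 and 2.33) lies above the diagonal. The point of Sema3e has no exact height, because its pLN signal in experiment 2 was not well above background.

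Probes of 1 gene often gave different sizes. Of 29 guidance genes with several entering probes, 10 had probes that differed in sign or by more than 1 on the log2 scale. These were Efna5, Slit2, Plxna1, Plxna3, Plxnc1, Nrp1, Robo1, Sema3e, Sema4d and Sema6d. For Robo1 and Sema3e this rests on probes not well above background on 1 pLN array. Over the 28 genes whose entering probes had 2 or more mapped positions, the median range between probes was 0.46. In 22 of the 28 the brightest probe, which represented the gene in the test, was also the one furthest towards the 3′ end.

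**Figure D4:**
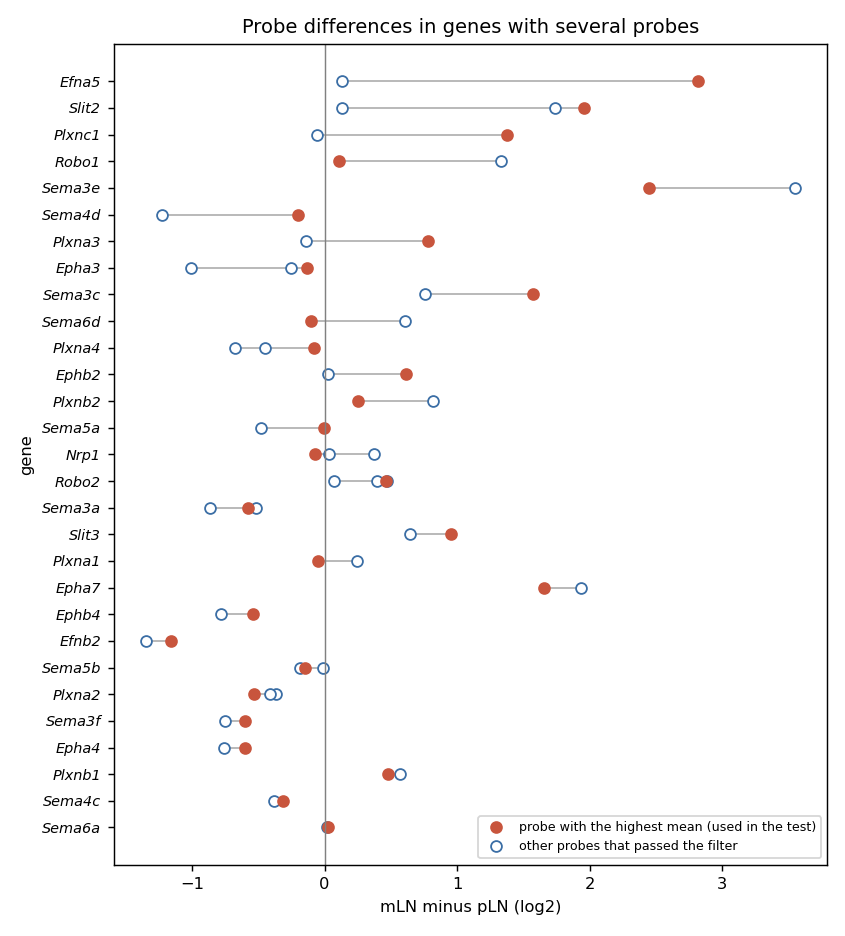
The plot of probes shows mLN minus pLN (log2, x axis) for every entering probe of the 29 guidance genes with several (y axis), filled for the probe used in the test and open for the others. Efna5 has the widest range, 0.13 to 2.81, followed by Slit2, 0.13 to 1.96, while both probes of Efnb2 lie close together. Differences of the second probes of Epha7, Sema3e, Robo1 and Plxnb2 rest on pLN signals not well above background on 1 or both arrays, and have no exact size.

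Other genes of these pathways, 71 co-receptors, further ligands and intracellular partners outside the 9 families, were read from a list. Of the 67 tested none was called by limma, and 12 (17.9%) had an unadjusted p under 0.05, 3 positive and 9 negative, beside 14.7% of all genes. The median was −0.06. Neo1, which encodes the netrin receptor neogenin, was −0.01 and 0.01 in pLN and 1.17 and 0.80 in mLN (0.98 ± 0.18, adjusted p = 0.125). Dcc, the other main netrin receptor, was not well above background on any array. Robo4, the endothelial Robo, had −0.06 ± 0.18 (adjusted p = 0.939).

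Chosen after their values were seen, the Unc5 ligands Flrt3 and Flrt2 had opposite differences. Flrt3 was 2.03 and 2.35 in pLN and 3.11 and 3.38 in mLN (1.06 ± 0.20, adjusted p = 0.125). Flrt2 was 2.57 and 2.13 in pLN and 1.65 and 0.89 in mLN (−1.08 ± 0.33, adjusted p = 0.255). Vav2, an exchange factor downstream of Eph receptors and likewise chosen afterwards, was 1.89 and 1.01 in pLN and −0.02 and −0.16 in mLN (−1.54 ± 0.33, adjusted p = 0.15).

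With 2 arrays per node the intervals were wide. For 30 of the 59 tested members the 95% interval of the difference stayed within 2-fold in both directions, and for the others it reached past 2-fold in at least 1 direction. No adjusted p other than those of Efna5 and Slit2 was under 0.0785, which does not show that the remaining genes had equal levels.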

How the data were processed

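The submitters' processing notes name Agilent Feature Extraction 9.5.3.1, and the deposited intensity values have the background subtracted and spatial trends removed, per the file headers. Other deposited columns are flags of 0 or 1 per spot. All 4 arrays lay on 1 slide scanned once, so no slide effect could be estimated. Per the labels, 80 ng of total RNA was amplified in 1 round.

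Control spots and outlier spots were left out, spots of a probe averaged, log2 taken and the 75th percentile of each array subtracted. Probes entered when flagged well above background on each array of mLN, of pLN or of both. A gene was its brightest entering probe, and 31883 probes gave 21392 genes. Differences were tested with limma 3.58.1 in R 4.3.3 (lmFit, eBayes, 4.35 total degrees of freedom), with Benjamini-Hochberg adjustment over all genes. An exact permutation of 2 against 2 arrays cannot go below 0.333. Experiments carry numbers in the labels, and each number is shared by 1 sample of either node. Over genes, which are not independent replicates, the deviations between experiments correlated with r = 0.246 in the 2 nodes.

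Members and lists were chosen with earlier results of these data known. Genes named were those past the threshold, those 2-fold or more apart with 1 sign in each experiment, the brightest and the most different of each family, those whose probes disagree, and Dcc, Neo1 and Robo4. Other members were added after their values were seen. The deposited value table, of intensity values whose scaling the labels do not state, served as an alternative setting.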

Additional observations from a re-analysis of the deposited data

How the results depend on the processing

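With the experiment as a replicate block 3 guidance genes passed, with Efnb3 added to Efna5 and Slit2, and the block changed no other call of a named guidance gene. The count was 2 with median scaling, quantile normalization, the deposited value table and probes above background on all 4 arrays. It was 1 with the mean of probes and with each probe in its own row, 5 with an intensity trend (Efnb2, Efnb3 and Epha2 added), and 0 with normexp correction and without the filter. Leaving out 1 array gave 0 to 1. Over all genes, calls went from 225 to 333 with the block, 354 with median scaling, 441 with the trend, 44 without the filter, 0 with normexp and 0 without either pLN array. Normexp moved the median of all genes from −0.03 to 0.38. In that setting the medians were 0.76 for ephrins and Eph receptors and 0.0033 for semaphorins, plexins and neuropilins. They were 0.46 for netrins and Unc5, and 0.94 for slits and Robo. The semaphorin system had −0.062 with median scaling and −0.063 with quantile normalization, and the ephrin system −0.092 without the filter. With 1 array left out the medians ranged from −0.14 to 0.22 for the ephrin system, −0.14 to −0.038 for the semaphorin system, −0.50 to −0.11 for the netrin system and 0.11 to 0.75 for the slit system. Signs turned with normexp for Nrp2 (−0.10), Ntn1 (0.31), Plxna1 (0.0033), Sema4d (0.068) and Unc5c (−0.070), and with the mean of probes for Nrp1 (0.11), Plxna1 (0.10) and Sema6d (0.25). With 1 array left out Nrp1 ranged from −0.38 to 0.23, Plxna1 from −0.18 to 0.083, Sema6d from −0.27 to 0.071 and Unc5c from −0.24 to 0.44. Fits with an array left out take the lone array to vary like the other group. The cause was not tested. Related pathway genes past the threshold numbered 0 in each setting run.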

Other observations

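Probes outside the naming rule measured further genes of these families under older names. The probe that the files name Ntn2l, now Ntn3, was −2.17 and −2.21 in pLN and −2.20 and −1.75 in mLN (0.21 ± 0.20, limma adjusted p = 0.735). The probe named Gm484, now Ntn5, was −4.54 and −4.10 in pLN and −3.67 and −2.82 in mLN (1.07 ± 0.35, adjusted p = 0.286), with no overlap between the nodes. A further Nrp2 probe, listed as Npn2, was not well above background on any array.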
